A study of Mus musculus with 39 samples.

Results

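The miR-297, miR-466, miR-467 and miR-669 families were taken from an Agilent single-colour mouse miRNA array profile of differentiating embryonic stem cells (ESCs). Earlier results of these data were known when the members were chosen. The choice went by name, as every miRNA on the array named miR-297, miR-466, miR-467 or miR-669, whatever its letter or arm. They made up 39 of the 650 miRNAs measured, with 3 in the miR-297, 14 in the miR-466, 10 in the miR-467 and 12 in the miR-669 family. The study asked how Activin A and Wnt3a, alone and together, change miRNA expression while mouse ESCs form definitive endoderm, the precursor of liver and pancreas.

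All 39 arrays came from 1 mouse ESC line, TCL-1, in 13 groups of 3 arrays. Undifferentiated cells (ESC) were 1 group. The study's methods describe the line as maintained with LIF on mitomycin-treated mouse embryonic fibroblasts as feeders. They do not say whether feeders were removed before the RNA of the ESC group was taken. The other 12 groups were plated on collagen after the feeders had been removed on gelatin. All of them, controls included, received RPMI medium with B27 and a sodium salt. The study's methods name it sodium butyrate, and its supplementary protocol spells it sodium byruate. Controls had no growth factor, and the treated cultures had Wnt3a at 50 ng/ml, or Activin A at 100 ng/ml, or the pair at these doses; all were collected after 1, 3 or 5 days. No genotype differed between groups. The sources used here do not say whether the 3 arrays of a group came from separate cultures, so the p-values measure the spread between these arrays only, which may be technical.

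These miRNAs are known from rodents, where most of their genes lie as a long tandem array in an intron of Sfmbt2, a Polycomb-group gene that is imprinted and expressed from the paternal copy in extraembryonic tissue. The cluster is expressed in mouse ESCs and in placenta, and its loss impairs placental growth. The hairpins grew by duplication around runs of UG and CA repeats, so many mature miRNAs differ by few bases and a probe for one may also capture another.

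In RefSeq GRCm38.p6, 29 of the 39 members had all their named genes inside Sfmbt2 on chromosome 2, and 3 more (miR-297a*, miR-466f-3p and miR-466f-5p) had copies both inside it and elsewhere. For 5 members the gene lay elsewhere: miR-466i on chromosome 13, miR-466j on chromosome 10, miR-466k on chromosome 3, miR-467f on chromosome 11 and miR-467g on chromosome 5. The names miR-466a-3p and miR-466a-5p matched no entry. The RefSeq mature sequences at hand covered those 5 dispersed members and are shown, from 5′ to 3′, because they make the repeat content visible, with the seed (bases 2 to 8) in capitals. The array names no arm for miR-466i, and the RefSeq entry shown is its 3p arm.

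miR-466i (chr13:17747552-17747573, plus strand): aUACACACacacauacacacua
miR-467f (chr11:69635419-69635439, minus strand): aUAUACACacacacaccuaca
miR-467g (chr5:34732872-34732892, minus strand): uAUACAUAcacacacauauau
miR-466j (chr10:60960802-60960824, plus strand): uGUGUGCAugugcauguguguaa
miR-466k (chr3:85467396-85467418, plus strand): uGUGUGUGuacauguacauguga

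No seed was shared by any pair of the 5. The first 3 are built mainly of A, C and U around CA repeats, and the last 2 of U and G with A. The probes for the 39 members were 106 different designs with none shared between members, 1 to 4 per member on 20 spots each. How much one member's RNA binds another's probe was not tested.

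Between 183 and 375 of the 650 miRNAs were detected per array, and no spot of a member was saturated. Detected miRNAs were fewest in ESC (183 to 235) and most at day 5 (307 to 375). The arrays were scanned in 2 sessions. The second session held all arrays of day 5 and the day 3 arrays with both factors, and the first held all others. The Wnt3a arrays of day 5 stood apart from each other: replicate 2 detected 375 miRNAs and 26 members, while replicate 1 detected 18 members and lacked miR-297a*, which every other array detected. The counts and differences of that group are given with replicate 1 and, where it changes a call or a value, without it. The scanner files and the authors' value table also differ on which arrays are which: for 18 of the 39 samples, all of them Activin A or Activin A plus Wnt3a, the value table holds the rank order of the other treatment's array of the same day and replicate. The scanner files, as labelled, were used throughout, and each direction between these treatments depends on that choice. So does each comparison of either treatment with the controls.

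Detection divided the members. Of the 39, 14 were detected on all 39 arrays: miR-466a-3p, miR-466c-5p and miR-466h, miR-467a, miR-467a*, miR-467b, miR-467c, miR-467e and miR-467f, and miR-669a, miR-669b, miR-669c, miR-669d and miR-669f. They are called the constant members below. A further 12 were detected on some arrays, of which 5 (miR-297b-5p, miR-466f-5p, miR-466j, miR-669e and miR-669h-3p) appeared on 1 array, a Wnt3a array of day 5. The remaining 13 were on no array. For the arms of 1 hairpin this was uneven: miR-467b was detected on 39 arrays and miR-467b* on none, and miR-466a-3p on 39 and miR-466a-5p on none.

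Among the dispersed genes, miR-467f was detected on 39 arrays, miR-466i on 35, miR-466j on 1, and miR-466k and miR-467g on none. A position outside Sfmbt2 was thus found both among members seen on every array and among members seen on none. Absence from an array means a signal not above background, not that the RNA is absent.

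**Figure D1:**
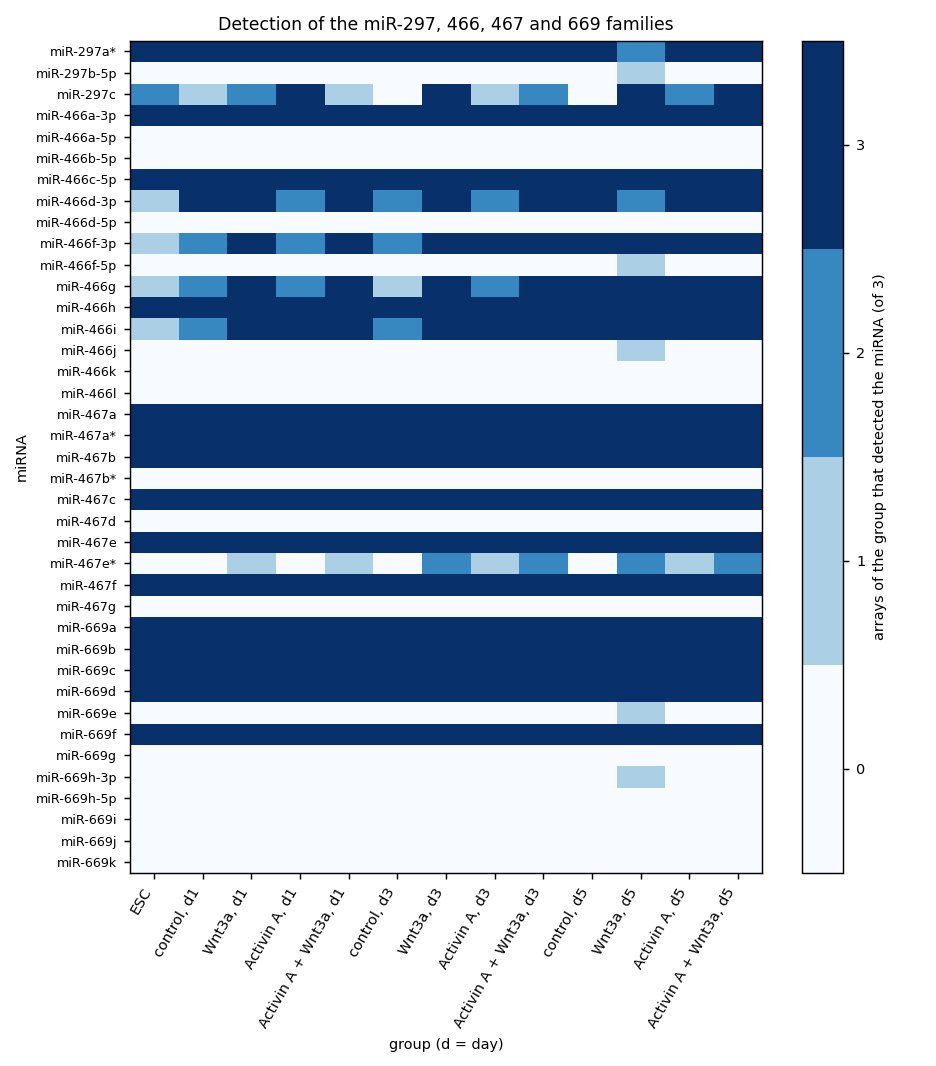
Each of the 39 members (vertical axis) in each of the 13 groups (horizontal axis, d = day), with the shade giving how many of the 3 arrays of the group detected it. The 14 constant members are dark throughout, 13 members are blank throughout, and miR-297c, miR-466d-3p, miR-466f-3p, miR-466g, miR-466i and miR-467e* vary between groups.

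Levels are log2 of the quantile-normalized gene signal with a floor of 2, so that an undetected value stands at 1. So do 225 of the 10796 detected values over all miRNAs, which lay under that floor. Levels of different miRNAs come from different probes and are not set against each other; only the same miRNA is compared between groups. A miRNA was tested where at least 2 of 3 arrays of some group detected it, and called at a Benjamini-Hochberg adjusted p under 0.05 from limma. Of the 39 members 21 passed that filter, and the other 18 were not tested. Across the 13 groups 19 of the 21 differed by limma's F-test, against 88.5 percent of all miRNAs tested, so that a member was called about as often as any other miRNA. The exceptions were miR-297c (adjusted p = 0.0904) and miR-467e* (adjusted p = 0.737), both undetected on many arrays.

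The members as a group were highest in ESC and at day 1, fell between day 1 and day 3, and stood higher with Wnt3a than without it at days 3 and 5. The mean over the 14 constant members was 7.88 ± 0.07 (SD, n = 3) in ESC, 7.56 ± 0.04 in day 1 controls, 5.87 ± 0.04 in day 3 controls and 5.51 ± 0.03 in day 5 controls. With Wnt3a it was 6.58 ± 0.01 at day 3 and 6.17 ± 0.32 at day 5. With Activin A alone it was 5.91 ± 0.03 and 5.52 ± 0.01, and with both factors 6.47 ± 0.02 and 6.18 ± 0.03. The values with Activin A rest on the labels of the scanner files. RNA came from whole cultures, so that fewer cells carrying these miRNAs and less of them per cell cannot be told apart.

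**Figure D2:**
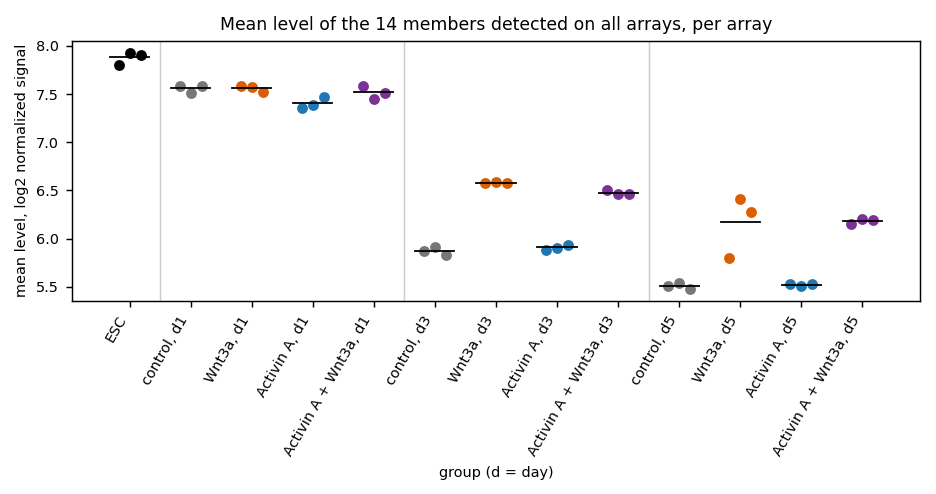
Mean log2 normalized signal of the 14 constant members (vertical axis) on each of the 39 arrays, by group (horizontal axis, d = day). Each point is 1 array and each bar is the group mean. At day 3 the Wnt3a and the Activin A plus Wnt3a arrays lie above all control and Activin A arrays, and at day 5 Wnt3a replicate 1 lies below the other Wnt3a arrays.

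The first comparison was between controls at day 1 and undifferentiated ESC. Of 21 members tested, 7 were called, 6 lower and 1 higher, while 30.3 percent of all miRNAs were called. The 6 that fell were miR-466c-5p, miR-467a, miR-467b, miR-467f, miR-669a and miR-669b, and the one that rose was miR-466d-3p. The 14 constant members shifted by a median of -0.29 under quantile normalization and of 0.00 when arrays were scaled to their 75th percentile, where 4 members were called in place of 7, so that the direction of the group depends on the scaling.

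miR-669b stood at 7.73, 7.70 and 7.77 in ESC and at 6.82, 6.76 and 6.72 in day 1 controls. The groups did not overlap, and miR-669b fell by 0.97 (SE 0.14, 1.95-fold, limma adjusted p = 3.59e-06). miR-669a was at 10.04, 10.04 and 10.16 in ESC and at 9.27, 9.13 and 9.22 after 1 day. Every day 1 value of miR-669a lay below every ESC value, a difference of -0.88 (SE 0.12, limma adjusted p = 1.76e-06).

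miR-466d-3p, the 3p arm of a hairpin of the Sfmbt2 intron, went the other way. It was undetected on 2 ESC arrays and at 4.07 on the third, and read 5.07, 4.23 and 4.77 in day 1 controls. The fitted difference of 2.67 (SE 0.70, limma adjusted p = 0.00343) rests on the floor of the 2 undetected arrays, and with a floor of 32 it was 0.02.

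Between day 1 and day 3 the control cultures showed the broadest change of these miRNAs. Of the 21 tested, 17 were lower and none was higher, and 15 of the 17 differed by more than 2-fold. Over all miRNAs tested, 21.7 percent were lower. The 17 include miR-466d-3p and miR-466g, which some of these arrays did not detect. The members' median difference was -1.74, beside a median of 0.50 over all miRNAs tested. By family, 5 of 7 miR-466, 6 of 7 miR-467, 5 of 5 miR-669 and 1 of 2 miR-297 members tested fell. All 14 constant members fell, by 0.88 to 2.32 on the log2 scale, and all 14 were also lower under both 75th percentile scalings, with medians of -1.67 and -2.05. Under normexp background correction, which adds an offset of 50 to the signals, 5 members were called and all 14 were still lower. All day 1 controls shared a slide, and the day 3 controls lay on other slides, linked to it through the Activin A arrays of day 1.

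miR-466a-3p stood at 10.16, 10.04 and 10.04 in day 1 controls and at 7.73, 7.65 and 7.91 at day 3. No day 3 value came near a day 1 value, and the fall was 4.99-fold (-2.32, SE 0.26, limma adjusted p = 5.34e-09). Under normexp the difference of miR-466a-3p was -1.11 and was not called (limma adjusted p = 0.0734). miR-669f went from 10.04, 9.74 and 10.16 to 7.88, 7.70 and 7.73. That was a difference of -2.21 (SE 0.28, limma adjusted p = 7.12e-08), again with no overlap.

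In the miR-467 family, miR-467b read 8.57, 8.48 and 8.48 at day 1 and 6.90, 7.05 and 6.90 at day 3. The difference of -1.56 had the small SE of 0.07 (limma adjusted p = 3.89e-18). miR-467c and miR-467e fell by 2.17 and 2.11, with limma adjusted p = 3.57e-13 and 4.97e-10. miR-467f, whose gene lies on chromosome 11 and not in Sfmbt2, read 5.95, 6.17 and 6.01 and then 5.33, 4.77 and 5.14, a difference of -0.96 (SE 0.12, limma adjusted p = 5.21e-08). It moved in the same direction as the Sfmbt2 members, and of the 14 constant members the fall of miR-466c-5p alone, 0.88, was smaller.

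miR-466h was at 5.30, 4.81 and 4.91 in day 1 controls and at 2.77, 3.74 and 2.54 at day 3. Its fall of 1.99 (SE 0.21, limma adjusted p = 2.3e-09) exceeded the spread of the day 3 arrays. miR-297a*, a passenger strand by its name, read 5.55, 5.39 and 5.32 and then 3.23, 3.77 and 3.25. It fell by 2.01 (SE 0.40, limma adjusted p = 6.5e-05). The lowest signals detected on these control arrays stood at 3.93 to 5.07 at day 1 and at 1.82 to 3.49 at day 3. Both miR-466h and miR-297a* lay near those limits on both days. The part of the lower limit in their falls was not tested. miR-669a stood at 9.27, 9.13 and 9.22 and then at 7.19, 7.17 and 7.24, also 4.02-fold lower with no overlap.

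Both strands of the miR-467a hairpin were detected on all arrays, the only such pair in the 4 families. miR-467a read 7.26, 7.24 and 7.17 at day 1 and 5.58, 5.55 and 5.30 at day 3. miR-467a* read 8.18, 8.29 and 8.26 and then 6.56, 6.35 and 6.56. The strands fell by 1.74 (SE 0.09) and 1.75 (SE 0.20), with limma adjusted p = 3.42e-16 and 1.15e-08.

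Markers of other cells moved over the same days. The feeder and mesenchymal list of 6 miRNAs (the miR-143, miR-145, miR-199 and miR-214 genes) had a summed log2 level of 8.79 to 9.02 in ESC, 9.93 to 9.99 in day 1 controls and 4.19 to 4.69 in day 3 controls, where 5 of the 6 were on no array. For the neural list of 4 (miR-124, miR-9, miR-9* and miR-219) the day 1 controls gave sums from 5.27 up to 5.71, and the day 3 controls sums from 7.50 up to 7.93. The ESC list of 9 arms of miR-290 to miR-295 was detected on every array and went from 15.13 on each day 1 control array to 14.15 to 14.24. The part of feeder or differentiating cells in the members' fall was not tested.

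From day 3 to day 5 few members were called in the controls. Of 21 tested, 5 were lower and none higher (miR-466c-5p, miR-466h, miR-467a, miR-467b and miR-467c). Of all miRNAs tested 20.9 percent were lower, so that a member was called lower about as often as any other miRNA. The 14 constant members shifted by a median of -0.29. The miRNAs detected on all arrays, these members included, shifted by a median of -0.39, and 10 of the 14 lay above that median. At day 3 miR-466h, at 2.77, 3.74 and 2.54, lay near the lowest signals detected on the control arrays (1.82 to 3.49). miR-467a read 5.58, 5.55 and 5.30 at day 3 and 4.68, 4.51 and 4.46 at day 5. The groups did not overlap, with a difference of -0.93 (SE 0.09, limma adjusted p = 1.23e-09). Under normexp no member was called, and the difference of miR-467a was -0.12 (limma adjusted p = 0.83). For miR-467a* the difference was -0.33 (SE 0.20, limma adjusted p = 0.221). None of the 5 miR-669 members was called, with a median of -0.10. The day 5 controls were scanned in the second session and the day 3 controls in the first, on other slides. Session and day cannot be told apart here.

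**Figure D3:**
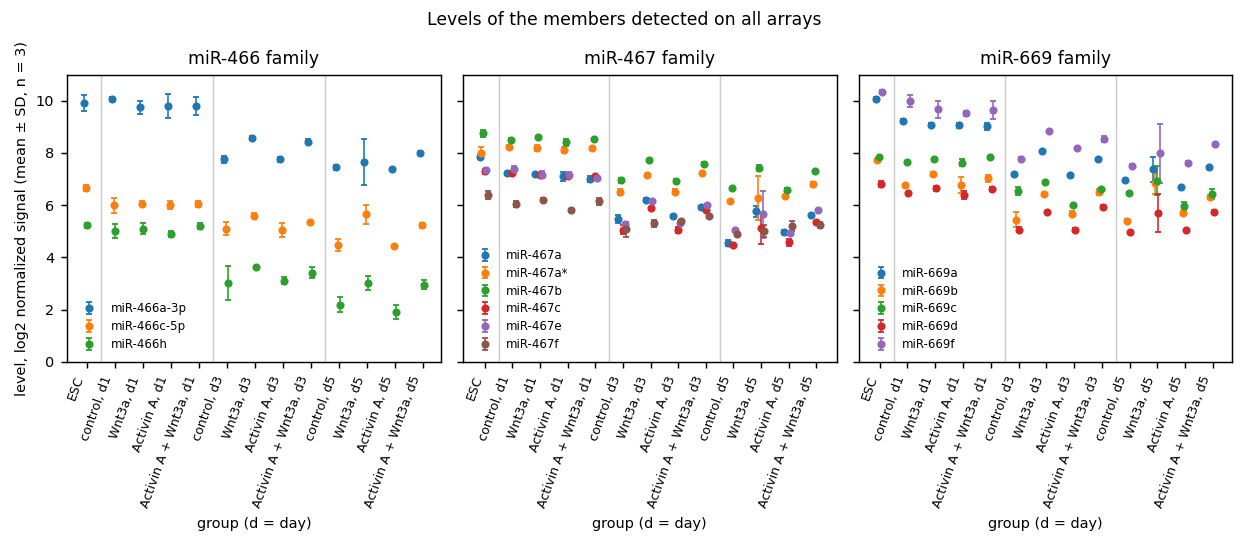
Levels of the 14 constant members in the 13 groups (horizontal axis, d = day), with 1 panel for each family that holds any; points are means and bars the SD of 3 arrays, as log2 normalized signal. The members drop between day 1 and day 3 and stand higher in most Wnt3a groups of days 3 and 5, while miR-467f changes less; heights of different miRNAs are not comparable.

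The next comparisons asked what each factor did within a day, against the control of that day, so the 3 treatments of a day share their control arrays. At day 1 few members were called. Wnt3a alone gave no called member of 20 tested by limma, with 2 at an unadjusted p under 0.05, while 20 percent of all miRNAs were called. Activin A alone also gave none, with 2 at an unadjusted p under 0.05, beside 3.33 percent of all miRNAs. Activin A plus Wnt3a gave 2 of 20, beside 25 percent of all.

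Those 2 were miR-669c and miR-467e. miR-669c read 7.67, 7.63 and 7.67 in controls and 7.88, 7.85 and 7.82 with both factors, a rise of 0.19 (SE 0.06, limma adjusted p = 0.0376) that became -0.18 and -0.12 under the 75th percentile scalings. miR-467e read 7.49, 7.31 and 7.36 and then 7.05, 6.97 and 7.03, a difference of -0.37 (SE 0.08, limma adjusted p = 0.0112). Against Activin A alone, both factors gave 2 higher members, miR-467f and miR-669c, beside 10.4 percent of all miRNAs called. miR-467f read 5.80, 5.78 and 5.85 with Activin A and 5.99, 6.28 and 6.17 with both, a difference of 0.34 (SE 0.08, limma adjusted p = 0.0309). With slide as a block, no member was called in either of these comparisons.

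At day 3 Wnt3a raised members of all 4 families. Of 21 tested, 14 were higher than in controls and none was lower, against 15.6 percent of all miRNAs called higher. The called members were 2 of 2 in the miR-297, 2 of 7 in the miR-466, 5 of 7 in the miR-467 and 5 of 5 in the miR-669 family. Rises were moderate, with 2 of the 14 over 2-fold. Over the 14 constant members the median difference was 0.75 (0.22 to 1.04), beside -0.01 over all miRNAs tested, and all 14 were positive under each scaling and under normexp background correction, where none passed the test.

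miR-669f read 7.88, 7.70 and 7.73 in controls and 8.82 on each of the 3 Wnt3a arrays. The groups were clearly apart, with a rise of 1.04 (2.06-fold, SE 0.07, limma adjusted p = 5.7e-06). miR-669a stood at 7.19, 7.17 and 7.24 in controls and at 8.11, 8.05 and 8.07 with Wnt3a. Its difference was 0.88 (SE 0.04, limma adjusted p = 9.49e-07), and no array overlapped. miR-669b rose by 0.99 (SE 0.12, limma adjusted p = 0.000253) and miR-669c, with the smallest rise of its family, by 0.33 (SE 0.08, limma adjusted p = 0.0106).

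In the miR-467 family miR-467b read 6.90, 7.05 and 6.90 in controls and 7.73, 7.73 and 7.70 with Wnt3a. All Wnt3a arrays were higher, by 0.77 (SE 0.06, limma adjusted p = 1.4e-05). miR-467a went from 5.58, 5.55 and 5.30 to 6.14, 6.19 and 6.28, and its other strand miR-467a* from 6.56, 6.35 and 6.56 to 7.12, 7.17 and 7.12. These are rises of 0.72 (SE 0.08) and 0.65 (SE 0.07), with limma adjusted p = 9.76e-05 and 0.000138.

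miR-466a-3p read 7.73, 7.65 and 7.91 in controls and 8.57, 8.66 and 8.48 with Wnt3a. It rose by 0.81 (SE 0.09, limma adjusted p = 0.000116) with no overlap. miR-297a* read 3.23, 3.77 and 3.25 and then 3.99, 4.26 and 4.05, a rise of 0.68 (SE 0.15, limma adjusted p = 0.00727). miR-297c was not well above background on any control array and stood at 3.95, 4.19 and 4.17 with Wnt3a (limma adjusted p = 0.00778, with the controls at the floor). Its mean with Wnt3a was 3.24-fold over the lowest signal that any miRNA gave on the control arrays. That is not a firm bound, because detection of miR-297c varied within groups: the ESC arrays gave 6.05, no detection and 6.05.

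The constant members not called at day 3 with Wnt3a were miR-466h and miR-467f. miR-467f, the chromosome 11 member, read 5.33, 4.77 and 5.14 in controls and 5.21, 5.46 and 5.24 with Wnt3a. Its arrays overlapped, and the difference was 0.22 (SE 0.13, limma adjusted p = 0.22). miR-466h read 2.77, 3.74 and 2.54 in controls and 3.64, 3.69 and 3.58 with Wnt3a, overlapping through 1 control array.

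The arrays lay on 5 slides. Wnt3a arrays and 2 of the 3 controls of day 3 shared a slide, and within it all 14 constant members were higher with Wnt3a, with a median of 0.76 (0.26 to 1.10). The control array on another slide differed from those 2 by a median of -0.01. The neural markers summed to 7.64 to 7.83 with Wnt3a and 7.50 to 7.93 without, the feeder and mesenchymal markers to 4.78 to 5.18 against 4.19 to 4.69, and the ESC markers to 14.61 to 14.66 against 14.15 to 14.24. The part of these cell types in the members' rise was not tested.

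Activin A alone left most members near the control at day 3. Of 21 tested, 2 were called, 1 in each direction, while 56.4 percent of all miRNAs were called. miR-669f read 8.15, 8.22 and 8.22, above the controls at 7.88, 7.70 and 7.73, by 0.42 (SE 0.07, limma adjusted p = 0.000548). miR-669c read 6.05, 5.95 and 5.99, below the controls at 6.39, 6.52 and 6.72, by a difference of -0.54 (SE 0.08, limma adjusted p = 0.000273). The median over the 14 constant members was 0.02, with 8 of them positive, and under the 75th percentile scaling over miRNAs detected on all arrays a median of -0.15 with 6 members called. On the slide that held both groups the median was -0.01. With the value table's columns as named, 15 members were called, all higher.

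With both factors at day 3, 15 of 21 members were higher than in controls and none was lower, against 27 percent of all miRNAs called higher, and 2 were called under normexp. Marker lists moved beside them: the ESC markers summed to 15.07 to 15.12 against 14.15 to 14.24 in controls, the neural markers to 5.38 to 5.64 against 7.50 to 7.93, and the feeder and mesenchymal markers to 2.78 to 3.44 against 4.19 to 4.69. Their part in the members' rise was not tested. The arrays with both factors were scanned in the second session and the controls in the first, so session and treatment cannot be told apart. With the value table's columns as named, 2 members were called, 1 in each direction. miR-669b read 5.63, 5.58 and 5.12 in controls and 6.40, 6.48 and 6.61 with both factors. It rose by 1.05 (2.08-fold, SE 0.12, limma adjusted p = 5.35e-05), with no overlap. miR-467f was called here, at 5.48, 5.65 and 5.61 and a difference of 0.50 (SE 0.13, limma adjusted p = 0.00846). Low members were called too: miR-466d-3p read 3.25, 3.45 and 3.13, against 2.13 and 2.18 on 2 control arrays and no detection on the third (a difference of 1.5, SE 0.40, limma adjusted p = 0.00914).

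Set against Activin A alone, both factors gave 13 of 21 members higher at day 3 and none lower, where 15 percent of all miRNAs were higher. Among the 14 constant members the median was 0.64 (0.20 to 0.87), all of them positive. miR-669d read 4.97, 5.07 and 5.10 with Activin A and 5.92, 5.85 and 5.99 with both, a rise of 0.87 (SE 0.06, limma adjusted p = 1.18e-05) with the groups well apart. miR-467b, at 6.95, 6.88 and 7.0 and then 7.65, 7.60 and 7.49, rose by 0.64 (SE 0.06, limma adjusted p = 6.73e-05). All 3 arrays with both factors lay on 1 slide that held no other array of day 3, so slide and treatment cannot be told apart here. Under normexp no member was called, though all 14 stayed positive, and with the columns of the authors' value table as named the direction turned and 12 members were lower.

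**Figure D4:**
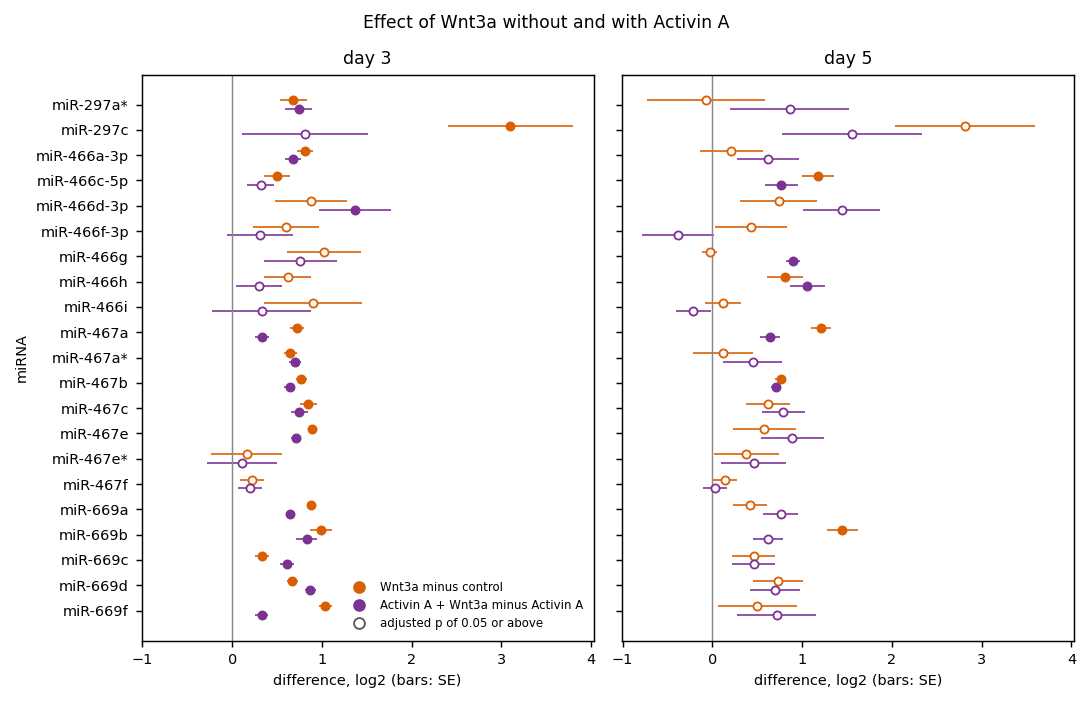
Difference made by Wnt3a without Activin A (Wnt3a minus control, orange) and with it (both factors minus Activin A, purple) for the 21 tested members, in log2 units, at day 3 and day 5. Bars are SEs from limma, and open points have an adjusted p of 0.05 or above. At day 3 all points are above 0, and at day 5 the bars of Wnt3a minus control are wider.

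At day 5 the Wnt3a group was uneven, and 5 of 21 members were higher than in controls and none lower, against 5.43 percent of all miRNAs called higher. The 5 were miR-466c-5p, miR-466h, miR-467a, miR-467b and miR-669b. Without Wnt3a replicate 1, 15 of 21 were higher and none lower, against 16.3 percent of all miRNAs. The mean over the 14 constant members was 5.80 on that array and 6.41 and 6.28 on the other two. The Wnt3a arrays and the controls lay on different slides, and with slide as a block, or with the methods' test without moderation, no member was called.

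miR-669b read 5.46, 5.39 and 5.30 in controls and 7.0, 7.12 and 6.37 with Wnt3a. Replicate 1 was high here, and the rise was 1.45 (2.72-fold, SE 0.17, limma adjusted p = 0.00119). miR-467a stood at 4.68, 4.51 and 4.46 in controls and at 6.01, 5.63 and 5.63 with Wnt3a, a rise of 1.21 (SE 0.11, limma adjusted p = 0.000284) with no overlap. miR-467b rose by 0.76 (SE 0.06, limma adjusted p = 0.00018), from 6.64, 6.66 and 6.68 to 7.31, 7.46 and 7.49. Without replicate 1 these rises were 1.36 for miR-669b, 1.08 for miR-467a and 0.82 for miR-467b.

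Other members were low on replicate 1 alone. miR-669f read 6.70 there and 8.78 and 8.48 on the other Wnt3a arrays, against 7.52, 7.40 and 7.54 in controls. miR-466a-3p read 6.64, 8.05 and 8.26, against 7.43, 7.36 and 7.52. Replicate 1 thus lay below every control for both, and replicates 2 and 3 above every control. Of the miR-467a hairpin, the strand miR-467a* read 5.32, 6.68 and 6.82 and differed from controls by 0.12 (SE 0.33, limma adjusted p = 0.927), and without replicate 1 by 0.59 (SE 0.06, limma adjusted p = 0.000406).

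Between replicate 1 and the other Wnt3a arrays of day 5, 5 of the 14 constant members were higher and 9 lower, from -1.93 to 0.83. Without replicate 1 all 14 exceeded the controls, with a median of 0.90 (0.06 to 1.36). miR-297c, on no control array, read 2.15, 5.65 and 3.62 with Wnt3a, and was not called (limma adjusted p = 0.0645). The mean of these arrays was 7-fold over the floor, but replicate 1 lay far under that mean. The ESC markers summed to 13.43 to 13.82 with Wnt3a and 12.95 to 13.07 without, the neural markers to 9.5 to 10.84 and 9.55 to 9.94, and the feeder and mesenchymal markers to 3.28 to 5.54 and 4.87 to 4.90. Their part in the members' differences was not tested.

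Activin A alone at day 5 gave 1 called member of 21, against 37.5 percent of all miRNAs. It was miR-467a, at 5.03, 4.97 and 4.93 over controls at 4.68, 4.51 and 4.46, a rise of 0.43 (SE 0.11, limma adjusted p = 0.0121), and the call was lost under both 75th percentile scalings, with differences of 0.10 and 0.32. The median over the 14 constant members was 0.03, with 7 of 14 positive, and on the slide that held 2 Activin A arrays and all 3 controls it was 0.01. With the value table's columns as named, 9 members were called, all higher.

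Both factors at day 5 gave 9 of 21 members higher than in controls and none lower, against 21.5 percent of all miRNAs called higher. All arrays with both factors lay on 1 slide and all controls on another, linked through the 3 Activin A arrays. With slide as a block 3 members were called, with a floor of 32 and under the 75th percentile scaling over miRNAs detected on all arrays 4, and under normexp 3. With the value table's columns as named, 1 member was called. miR-467a read 5.58, 5.68 and 5.58, above the controls by 1.06 (2.09-fold, SE 0.11, limma adjusted p = 3.75e-05). miR-466g was close to the floor in every day 5 group but this one, where it read 2.13, 1.91 and 1.85, against 1.00, 1.00 and 1.10 in controls. miR-297c read 3.88, 3.77 and 3.30 and was on no control array (limma adjusted p = 0.0211). Its mean was 6.28-fold over the floor, which is not a firm bound on the difference.

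Against Activin A alone, both factors at day 5 gave 5 of 21 members higher and none lower (miR-466c-5p, miR-466g, miR-466h, miR-467a and miR-467b), where 3.53 percent of all miRNAs were higher. With 1 array left out the count was 3 or 4, and it was 2 with slide as a block, 3 under each 75th percentile scaling, 2 with a floor of 32 and 1 under normexp. miR-466h read 1.66, 1.82 and 2.18 with Activin A and 3.13, 2.95 and 2.77 with both, a rise of 1.06 (2.09-fold, SE 0.20, limma adjusted p = 0.0155) with no overlap. Its signals lay under 32, and the difference was 0.00 with a floor of 32, 0.03 under normexp, 0.55 under the 75th percentile scaling over miRNAs detected on all arrays and 0.77 with slide as a block, none of them called. The call was also lost without either Activin A plus Wnt3a replicate 1 or 2 or Activin A replicate 1 or 2 (0.95 to 1.06). miR-467b, at 6.58, 6.53 and 6.66 and then 7.31, 7.31 and 7.26, rose by 0.71 (SE 0.06, limma adjusted p = 0.000118). The 14 constant members shifted by a median of 0.70, all positive, and by 0.70 on the slide that held 1 Activin A array with all 3 arrays of both factors. With the value table's columns as named, 5 members were lower instead. The feeder and mesenchymal markers summed to 6.17 to 6.27 with both factors, 4.62 to 4.81 with Activin A and 4.87 to 4.90 in controls. The neural markers gave 5.14 to 5.33, 6.28 to 6.45 and 9.55 to 9.94 in that order, and the ESC markers 14.96 to 15.05, 14.69 to 14.85 and 12.95 to 13.07. The part of these cell types in the members' differences was not tested.

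Whether an effect changed between days, or with the other factor, was tested on the difference itself. The effect of Activin A at day 5 minus that at day 3 was called by limma for 0 of 21 members, with 1 at an unadjusted p under 0.05, against 20.9 percent of all miRNAs. For both factors it was called for 1 member, against 28.4 percent, and for Wnt3a for 1 member, against 4.83 percent. In both cases this was miR-467a, with differences of 0.63 (SE 0.13, limma adjusted p = 0.000346) and 0.48 (SE 0.13, limma adjusted p = 0.0215), the effect being larger at day 5 in this fit. The day 3 arrays with both factors were scanned in another session than their controls, so session cannot be told apart from the difference for both factors. Neither call held under the 75th percentile scalings, under normexp or with a higher floor, while both held under quantile normalization of log2 signals. For both factors the difference was 0.16 and 0.46 under the 75th percentile scalings, 0.18 with a floor of 32 and -0.07 under normexp, and for Wnt3a it was 0.18, 0.30, 0.03 and 0.10 in the same order. The Wnt3a difference was also not called with slide as a block (0.50), and it was 0.35 without Wnt3a replicate 1 of day 5 (limma adjusted p = 0.0442). It lost the call without each of 5 other arrays, which were control replicates 1 and 2 and Wnt3a replicate 1 of day 3 and control replicates 2 and 3 of day 5 (0.43 to 0.46).

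The effect of Wnt3a with Activin A minus that without it was called for 3 of 21 members at day 3, against 22.7 percent of all miRNAs, and for 1 at day 5, against 3.26 percent. At day 1 it was called by limma for 0 of 20, and 0 had an unadjusted p under 0.05. The 3 of day 3 were miR-467a, miR-669a and miR-669f, and for each the rise was smaller with Activin A. For miR-669f it was 1.04 without and 0.33 with Activin A, a difference of -0.72 (SE 0.10, limma adjusted p = 0.00112). Activin A alone against control gave 0.42 for miR-669f, and a link between these values was not tested. The day 3 arrays with both factors lay on a slide and in a scan session that held no other array of day 3. Slide and session therefore cannot be told apart from the differences called at day 3. The miR-669a call was lost under both 75th percentile scalings (-0.10 and -0.15), and all 3 were lost under normexp. With the replicate block the calls of miR-467a and miR-669a were lost (limma adjusted p = 0.0519 and 0.0505). The member of day 5 was miR-466g, which was near the floor outside the group with both factors; its difference of 0.93 was the same without Wnt3a replicate 1, but 0.01 and 0.06 under the 75th percentile scalings and 0.00 with a floor of 32.

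The 14 constant members followed one another closely over the 13 groups. Pearson's r between each and the mean of the other 13 ranged from 0.882 (miR-669b) to 0.995 (miR-467b), over 13 group means, and was 0.935 for miR-467f. These are descriptions: the points share normalization and the members may share probe binding. Among the 129 other miRNAs detected on all arrays the median r with the members' mean was -0.22, and the highest were miR-22 (0.940), miR-7a (0.931), miR-29a (0.910), miR-290-3p (0.910) and miR-181d (0.909).

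The counts for the other miRNA clusters of ESCs are set beside those of the members, with no test between clusters. Those with Activin A rest on the labels of the scanner files. Of the 13 miR-290 to miR-295 arms tested, 12 were lower in controls at day 3 than at day 1 (median -1.57), as were 17 of 21 members. At day 3 Wnt3a alone raised 11 of these 13 (median 0.59) and Activin A alone 12 (median 1.16), whereas the members numbered 14 and 1. Adding Wnt3a to Activin A raised 2 of the 13 at day 3 and 0 at day 5, beside 13 and 5 of the 21 members, and it raised 7 of 8 miR-302/miR-367 arms at day 3 (median 0.40) and 0 at day 5. The miR-302/miR-367 arms went the other way over time, with 6 of 8 higher in controls at day 3 than at day 1 (median 2.85), and 4 of 8 were lower with Wnt3a at day 3.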

How the data were processed

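MicroRNA was measured on single-colour Agilent mouse arrays, 3 for each of 13 groups defined by the labels. The authors extracted the images with Feature Extraction, version 9.5.3.1 in the submitters' notes and 10.7.3.1 per the file headers. The deposited scanner files hold each miRNA's total gene signal, a background-subtracted intensity (0.1 where undetected), and a detection flag. The deposited value table holds log2 values that the authors had quantile normalized, and it served as an alternative only.

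The gene signal intensities were quantile normalized over all 39 arrays, set to a floor of 2 and log2 transformed in R 4.3.3. Contrasts were fitted with limma 3.58.1, over all 39 arrays for the time course, the F-test and differences between days and within a day, on its 12 arrays, for treatments, with Benjamini-Hochberg adjustment over all miRNAs tested (373, and 240, 326 and 368 at days 1, 3 and 5). A miRNA with the same value on every array of a fit was counted as tested and not called.

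Members in full were, per family, the one with the highest mean and the one with the widest range over groups, the called member with the largest rise and fall in each comparison, called members opposed to the majority, and strand pairs on all arrays; miRNAs named beside these were chosen after their values were seen. The members and lists were chosen with earlier results of these data known. Scripts were tested on simulated data. Alternatives covered scaling, background correction, floor, detection filter, test, slide, replicate block, the value table and each array left out. Depth has no counterpart on arrays: their number, 3 per group, limits the precision. Local background was 35 to 42 intensity units. The same-numbered arrays of 2 groups deviated together, with every correlation over 0.1, in 1 of 15 comparisons (Activin A plus Wnt3a against Activin A at day 3), so the main fits have no replicate block.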

Additional observations from a re-analysis of the deposited data

Results flagged for a closer look

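The effect of Activin A plus Wnt3a on miR-467a differed between days by a test of the difference, being larger at day 5 than at day 3 by 0.63 log2 units (SE 0.13, limma adjusted p = 0.000346). The effect of Wnt3a alone on miR-467a was also larger at day 5, by 0.48 (SE 0.13, limma adjusted p = 0.0215). Neither was called under either 75th percentile scaling, under normexp or with a floor of 32, where the first ranged from -0.07 to 0.46 and the second from 0.03 to 0.30. At day 3 the effect of Wnt3a was smaller with Activin A than without it for miR-467a (-0.39, SE 0.11, limma adjusted p = 0.0275), miR-669a (-0.23, SE 0.06, limma adjusted p = 0.0275) and miR-669f (-0.72, SE 0.10, limma adjusted p = 0.00112); none of the 3 was called under normexp, and miR-467a and miR-669a lost the call with the replicate block and each without 5 of the 12 arrays left out in turn. At day 5 the effect of Wnt3a on miR-466g was larger with Activin A (0.93, SE 0.12, limma adjusted p = 0.00302), at levels of at most 2.13, near the floor of 1, and it was 0.01 and 0.06 under the 75th percentile scalings. With 3 arrays a group, no test for single outlying arrays was run. The differences with Activin A depend on the labels of the scanner files. The day 3 arrays with both factors lay on a slide and in a scan session that held no other array of day 3. Slide and session thus cannot be told apart from the differences of day 3. Nor can session be told apart from the change of both factors' effect on miR-467a between days.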

How the results depend on the processing

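The counts for Wnt3a and for both factors at day 3, and for the fall from day 1 to day 3, stayed within 1.5 times under every setting but normexp, a 2-fold minimum and the value table's columns as named; those at days 1 and 5 moved more often. Below, counts are of members called; the cause of a change was not tested unless the setting itself shows it. Under the 75th percentile scaling over miRNAs detected on all arrays, 4 members were called for control day 1 against ESC and 2 for control day 5 against day 3. At day 1 it gave 4 (lower) for Wnt3a, 7 (lower) for both factors, with miR-669c at -0.18, and 0 for both factors against Activin A. It gave 6 for Activin A at day 3, 2 for Activin A at day 5, 4 for both factors and 3 for both against Activin A at day 5, and 2, now lower, for the change of both factors' effect between days. With the percentile over all miRNAs the counts were 4 and 3 for the time course, 0 and 0 for both factors at day 1 (miR-669c at -0.12), 2 for Activin A and 3 for both against Activin A at day 5, and 0 for the change of both factors' effect.

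Normexp background correction left few calls: 0 for control day 1 against ESC (miR-466d-3p at -0.04), 5 for day 3 against day 1, 0 for day 5 against day 3, 0 and 0 for both factors at day 1 (miR-467e at 0.15), 0 for Wnt3a, 0 for Activin A, 2 for both factors and 0 for both against Activin A at day 3, 2 for Wnt3a, 3 for both and 1 for both against Activin A at day 5, and 0 for the change of both factors' effect (miR-467a at -0.07). Requiring over 2-fold left 1, higher, for day 1 against ESC, 0 for day 5 against day 3, 0 and 0 for both factors at day 1, 2 for Wnt3a, 0 for Activin A, 4 for both and 1 for both against Activin A at day 3, 3, 0, 2 and 1 at day 5 in that order, and 0 for the change of both factors' effect. A floor of 32 gave 2 for day 5 against day 3, 3, 0, 4 and 2 at day 5 in the same order, and 1, now lower, for the change of both factors' effect.

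The methods' test without moderation called 8 for day 5 against day 3, 2 for Wnt3a at day 1, 0 for both against Activin A at day 1, and 0, 9, 18 and 15 at day 5. One fit of all arrays called 0 and 0 for both factors at day 1, 1 for Activin A at day 3, and 10 for Wnt3a, 3 for Activin A and 9 for both against Activin A at day 5. Without a detection filter both day 1 counts of both factors were 1; a filter of all 3 arrays gave 2 for Activin A at day 5. Leaving out miRNAs with no spread, chosen after seeing the data, gave 1 for both against Activin A at day 1 and 2 for Activin A at day 5. Quantile normalization within days gave 3 for both against Activin A at day 5, and on log2 signals 1 for the change of Activin A's effect.

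With slide as a block the counts were 1 for Activin A and 0 and 0 for both factors at day 1 (miR-669c at -0.01), 4 for Activin A at day 3, 0 for Wnt3a, 3 for Activin A, 3 for both and 2 for both against Activin A at day 5, and 2 for the change of both factors' effect. With the replicate block they were 1 and 0 for both factors at day 1, and no other count moved by over 1.5 times; the calls of miR-467a and miR-669a for the effect of Wnt3a with minus without Activin A at day 3 were lost. Same-numbered arrays correlated between -0.50 and 0.39.

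With the value table's columns as named, Activin A had 2, 15 and 9 members called at days 1, 3 and 5 (miR-669c at 0.07 on day 3) and both factors had 0, 2 and 1 (miR-669c at -0.03 on day 1). Both factors against Activin A had 2, 12 and 5, all lower, with miR-467f at -0.36, miR-669d at -1.05 and miR-466h at -0.82, and the change of Activin A's effect had 2. The effect of Wnt3a with minus without Activin A at day 5 was -0.48 for miR-466g. With columns matched to arrays, the changes of the effects of Activin A and of both had 1 and 2.

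With 1 array left out, the ranges were 18 to 20 for the F-test, 6 to 9, 16 to 19 and 5 to 6 for the time course, and at day 1 0 to 0 for Wnt3a, 0 to 1 for Activin A, 1 to 2 for both and 0 to 6 for both against Activin A. At day 3 they were 13 to 15, 2 to 4, 15 to 18 and 12 to 13, and at day 5 4 to 15 (15 without Wnt3a replicate 1), 0 to 3, 6 to 8 and 3 to 4. The changes of effect had 0 to 1 for Activin A and 1 to 2 for both. Of the named differences under the other settings, 251 kept direction and call, 67 lost the call and 12 reversed. Signal over background limits the low members: miR-297c, miR-466d-3p, miR-466f-3p, miR-466g, miR-466i and miR-467e* rest partly on the floor.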
